A study of Homo sapiens with 6 samples.

Results

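Nuclear hormone receptors are transcription factors that switch genes on or off when a small fat-soluble ligand, such as a steroid, a retinoid, a thyroid hormone or a bile acid, enters their ligand-binding pocket. A list of 42 human receptor genes was matched by gene symbol to the expression table, which holds 35856 genes. It matched 40 of them, and NR5A1 and NR1I2 were not analysed here. Of the 40, 37 were among the 20741 genes with enough reads to be tested.

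The study asked which genes and pathways change when the long non-coding RNA LINC00862 is overexpressed in HCCLM3, a human liver cancer line. In 3 libraries the polyadenylated RNA came from cells transfected with a vector carrying LINC00862 (called LINC00862 below), and in the other 3 from control cells labelled NC. The NC cells are taken here as given the empty vector, the control that the paper names for its mouse experiments. If so, both groups were transfected. No receptor ligand is named for either, and whether the sequenced cells carried the vector transiently or stably is not given in the sources used here. The labels do not say whether the libraries of a group came from separate cultures, so the p-values measure the spread between these libraries, which may be technical.

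Most receptors bind DNA as a pair at repeats of a 6-base half-site, and the retinoid X receptors (RXR) are the shared partner of the retinoic acid, thyroid hormone, vitamin D, PPAR, LXR and FXR receptors. Once bound by an activating ligand, a receptor exchanges corepressors such as the NCOR and HDAC3 complex for coactivators. In the liver the family sets bile acid, cholesterol, fatty acid, drug and glucose metabolism, and several members are also parts of the circadian clock or respond within minutes to growth signals.

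2 receptor promoters and 1 target site are printed to show the letters of elements through which such genes are known to be regulated. They come from RefSeq promoter sequences (GRCh38.p14), which matched 36 of the 40 receptors with 87 promoters of 300 bases each. RARB encodes a retinoic acid receptor and is itself switched on by retinoic acid, through a pair of GTTCA repeats separated by 6 bases. Searched on both strands, this pair was found in 20 of 35116 promoters (0.0570%), and among the receptors in RARB only. The 100 bases before the RARB transcript start, on the plus strand at chr3:25428163-25428262, carry it beginning 52 bases before the start, shown in capitals. CYP26A1, a retinoic acid-degrading enzyme that was chosen for display after its values were seen, is another of the 20. Its site is shown as 30 bases of the plus strand, chr10:93073796-93073825, with the element in capitals on the opposite strand, beginning 90 bases before the start.
RARB: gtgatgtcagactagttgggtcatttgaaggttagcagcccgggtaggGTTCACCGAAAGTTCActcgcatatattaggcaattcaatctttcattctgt
CYP26A1: ttaaagaTGAACTTTGGGTGAACtaattgt

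NR4A3 encodes an immediate early receptor, a kind of gene that is induced within minutes by cyclic AMP and other signals through the half-site TGACGT. 100 bases of its promoter are shown, on the plus strand at chr9:99821755-99821854, with 2 half-sites in capitals that begin 109 and 83 bases before the start. These letters were found on either strand in 2803 of 35116 promoters (7.98%) and in 6 of the 87 receptor promoters (6.90%). The general nuclear receptor half-site AGGTCA was found in 14 of the 87 receptor promoters (16.1%), against 13.8% of all promoters. A match describes letters in a window and does not show binding.
NR4A3: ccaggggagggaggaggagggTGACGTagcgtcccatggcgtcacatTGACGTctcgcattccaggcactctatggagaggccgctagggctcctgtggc

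The total counts were 58241123 to 68229070 per library, and 23791 to 24850 genes had a count in the NC libraries against 27464 to 28070 in the LINC00862 libraries. LINC00862 itself had 11, 21 and 6 counts in NC and 145, 121 and 76 in LINC00862, a log2 fold change of 3.22 (SE 0.53, adjusted p = 0.000583, edgeR quasi-likelihood test) at a mean of 0.449 FPKM in LINC00862. Markers of cell identity moved with the same contrast. All 6 mesenchymal markers were lower in LINC00862 (summed FPKM 774 to 805 in NC, 6.79 to 7.08 in LINC00862), and 6 of 7 epithelial markers were higher (194 to 287.4 against 486.3 to 558). Among all tested genes 29.8% were lower and 34.4% higher. Enough reads for the test came only from the LINC00862 libraries for 1 epithelial marker, which so had to be higher. Of 9 tested hepatocyte markers, 7 were higher (77.8%) and 2 lower (22.2%). The list summed to 6.12 to 6.56 FPKM in NC and 1259 to 1506 in LINC00862, nearly all of the latter from the fibrinogen chains FGA and FGB. However, 4 of the 7 had enough reads to be tested only through the LINC00862 libraries and so had to be higher. Among the 4 markers with enough reads in all 6 libraries, 3 were higher and 1 lower. Among single liver markers, ALB stood at 0.00780 mean FPKM in NC and 1.51 in LINC00862, and AFP at 0.104 in NC and 0 in LINC00862. The 2 hepatocyte markers that fell were SERPINA1, from a mean of 1.285 FPKM in NC to 0.0950 in LINC00862, and ASGR1, from 0.4565 to 0.0766. Of 2 tested hepatoma and fetal liver markers, H19 was higher and AFP lower (summed FPKM 0.166 to 0.297 in NC, 0.249 to 0.391 in LINC00862). AFP had enough reads only in NC and so had to be lower. Of 3 endothelial markers CDH5 was higher (summed FPKM 0.897 to 1.04 in NC, 4.26 to 5.18 in LINC00862), and of 3 leukocyte markers CD68 was higher (1.36 to 1.79 against 4.21 to 9.11). These shifts accompanied every receptor difference given below, and their part in it was not tested. In bulk RNA, a change in the cells that carry a transcript and a change in transcript per cell cannot be told apart, nor can an effect of the vector and a difference between the cells sequenced.

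The summed FPKM of the receptor family was higher in LINC00862, although not in every class. The 40 receptors summed to 158, 129 and 134 FPKM in NC and to 221.9, 229.9 and 205 FPKM in LINC00862. The largest rises in mean class sum were in the oestrogen-related (8.92 to 50.55 FPKM) and NR4A receptors (4.88 to 51.1). The sum fell in the thyroid hormone, retinoic acid and vitamin D class (18.29 to 11.04) and the steroid class (14.92 to 8.74). It also fell in the COUP-TF, testicular and other orphan class (49.49 to 34.98). Means of the remaining classes were higher by less. FPKM divides the reads of a gene by the length of its transcripts and by library size, so levels can be compared between genes. A mean of at least 1 FPKM was reached by 20 receptors in NC, 25 in LINC00862 and 19 in both, and 13 receptors in NC against 5 in LINC00862 stayed under 0.1 FPKM. The most abundant receptors also changed places. COUP-TFII (NR2F2), NR2F6, the glucocorticoid receptor NR3C1, RXRB and ESRRA led in NC. ESRRA, NR4A2, NR4A1, RXRB and NR2F6 led in LINC00862.

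Of the 37 tested receptors, 23 were higher and 8 lower in LINC00862 (edgeR quasi-likelihood test, adjusted p < 0.05), and 6 did not pass the test. That is 83.8% of the receptors called, 62.2% higher and 21.6% lower, against 64.2% of all tested genes called, 34.4% higher and 29.8% lower. A fold change of at least 2 was seen in 19 receptors that rose and 5 that fell, where 28.9% and 20.9% of all tested genes did so (49.8% in either direction). The FPKM of the groups did not overlap in 27 receptors (73.0%), close to the 71.1% of all tested genes. The median log2 fold change was 1.18 over the receptors and 0.11 over all tested genes. RXRG, ESR1, PGR, ESRRB and NR2E3 reached the count filter only through the LINC00862 libraries and so had to be higher. ESRRG, NR0B1 and NR1I3 met its cutoff in all 3 LINC00862 libraries but not in all 3 NC libraries. The NC libraries alone would not have passed them, so their direction was not free either. Among the 29 receptors at the filter's cutoff in all 6 libraries, 15 were higher (51.7%) and 8 lower (27.6%), against 28.1% and 35.3% of the 15072 genes held to the same cutoff (63.4% in either direction), and the medians were 0.48 and -0.13. An exact permutation test of 3 libraries against 3 cannot give a two-sided p below 0.1, so the calls below are those of edgeR's quasi-likelihood test adjusted over all 20741 genes.

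**Figure D1:**
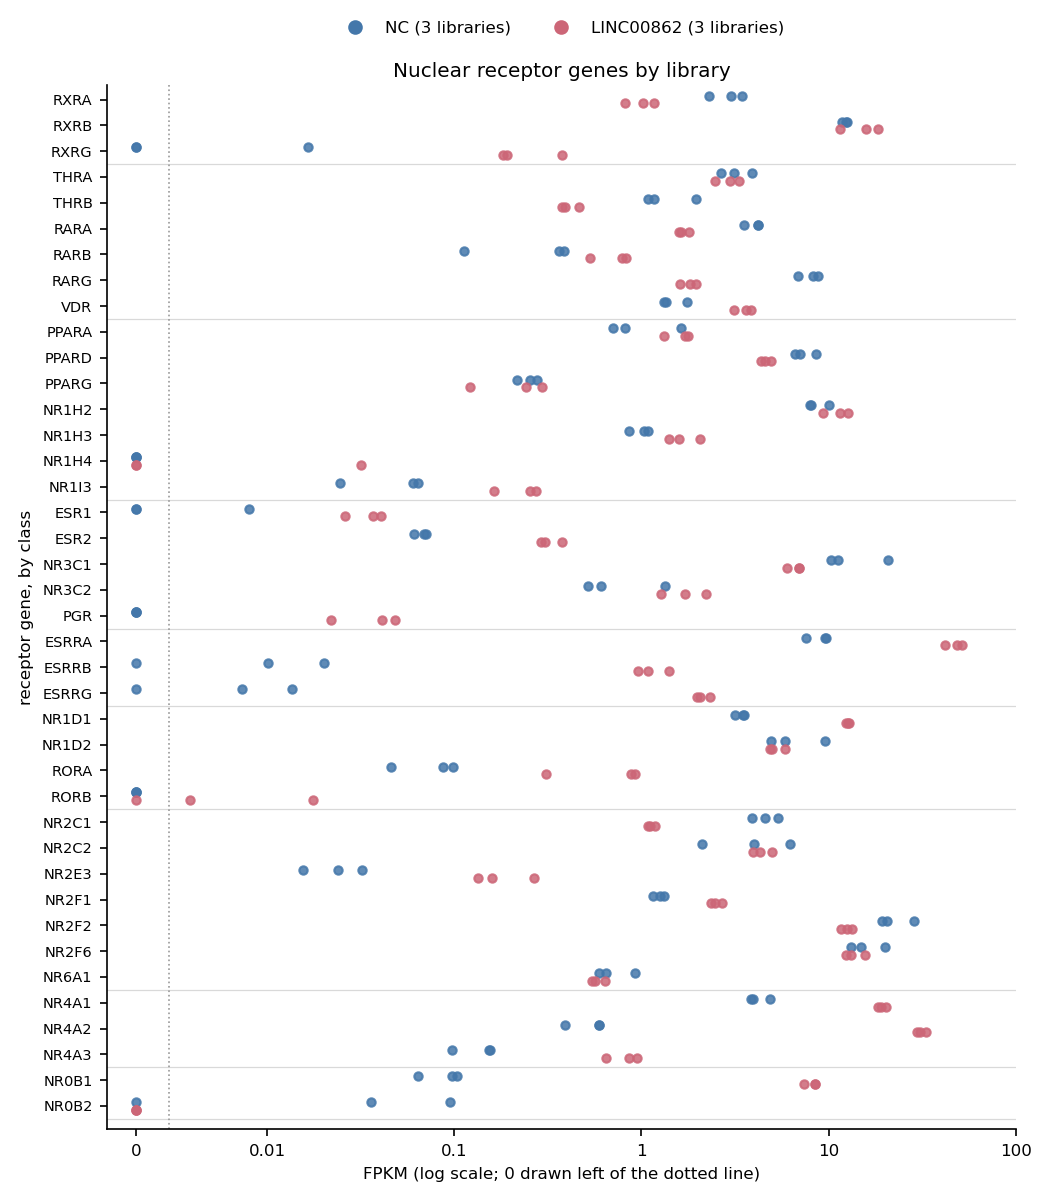
FPKM of each receptor (horizontal log axis, values of 0 drawn left of the dotted line) in the 3 NC and 3 LINC00862 libraries, 1 point per library, with receptor classes separated by lines. NR4A2 stands at 0.392 to 0.595 FPKM in NC and 29.7 to 32.9 FPKM in LINC00862, while THRA, NR2F6 and NR2C2 overlap between the groups.

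The 3 oestrogen-related receptors (ERR) rose together, and their summed FPKM went from 8.92 ± 1.15 in NC to 50.6 ± 5.45 in LINC00862 (SD, n = 3). These receptors have no known hormone and, with the coactivator PGC-1, drive genes of mitochondrial respiration and fat oxidation. ESRRA (ERR alpha) had 7.57, 9.64 and 9.50 FPKM in NC and 48.5, 51.7 and 41.6 in LINC00862. That made it the fifth receptor by level in NC and the first in LINC00862, with a log2 fold change of 2.57 (SE 0.17, adjusted p = 2.72e-06). ESRRG (ERR gamma), which is found in tissues of high energy use, had 6, 10 and 0 counts in NC and 1664, 1683 and 1511 in LINC00862. The NC libraries held almost no ESRRG transcript, whereas the LINC00862 libraries reached 1.99 to 2.32 FPKM (log2 fold change 8.31, SE 0.54, adjusted p = 2.01e-06, and 7.765 to 9.15 with 1 library left out). ESRRB (ERR beta), a receptor of stem cells and the inner ear, had 10, 0 and 4 counts in NC and 490, 551 and 385 in LINC00862 (log2 fold change 6.75, SE 0.65, adjusted p = 2.36e-05, and 6.19 to 7.85 with 1 library left out). ESRRA still supplied 93.5% of the ERR transcripts in LINC00862, after 99.8% in NC. ESRRA has pseudogene copies that reads could be split with, and 9.37% of its exon bases overlap TRMT112 on the opposite strand, a gene that was lower (log2 fold change -1.64). The library preparation digested the dUTP-marked strand and so retained strand information, but whether the counting used it is not stated in the sources used here.

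The NR4A receptors, which act without a ligand and are switched on by calcium, cyclic AMP, growth factors and stress, were also higher throughout, and their summed FPKM went from 4.88 ± 0.64 to 51.1 ± 1.86 (SD, n = 3). NR4A2 (Nurr1), known for its part in dopamine neurons, had 0.595, 0.595 and 0.392 FPKM in NC and 29.7, 30.7 and 32.9 in LINC00862. This 66.3-fold difference (log2 6.05, SE 0.22, adjusted p = 8.30e-08) took it from the 24th to the 2nd most abundant receptor. NR4A1 (Nur77), a regulator of cell death and of liver glucose output, had 3.85, 4.86 and 3.94 FPKM in NC and 18.3, 20.3 and 18.9 in LINC00862 (log2 fold change 2.35, SE 0.17, adjusted p = 3.29e-06). NR4A1AS, an antisense gene that covers 10.3% of the NR4A1 exon bases, was higher too, with a log2 fold change of 3.62. NR4A3 (NOR1), whose promoter half-sites are printed above, rose from 0.155, 0.154 and 0.0972 FPKM to 0.945, 0.859 and 0.647 (log2 fold change 2.76, SE 0.30, adjusted p = 4.99e-05). The groups did not overlap for any of the 3. The make-up of the subfamily turned over, since NR4A1 gave 86.4% ± 2.64 of its FPKM in NC and 37.5% ± 1.55 in LINC00862, and NR4A2 gave 10.8% ± 2.05 and 60.9% ± 1.77 (SD, n = 3).

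**Figure D2:**
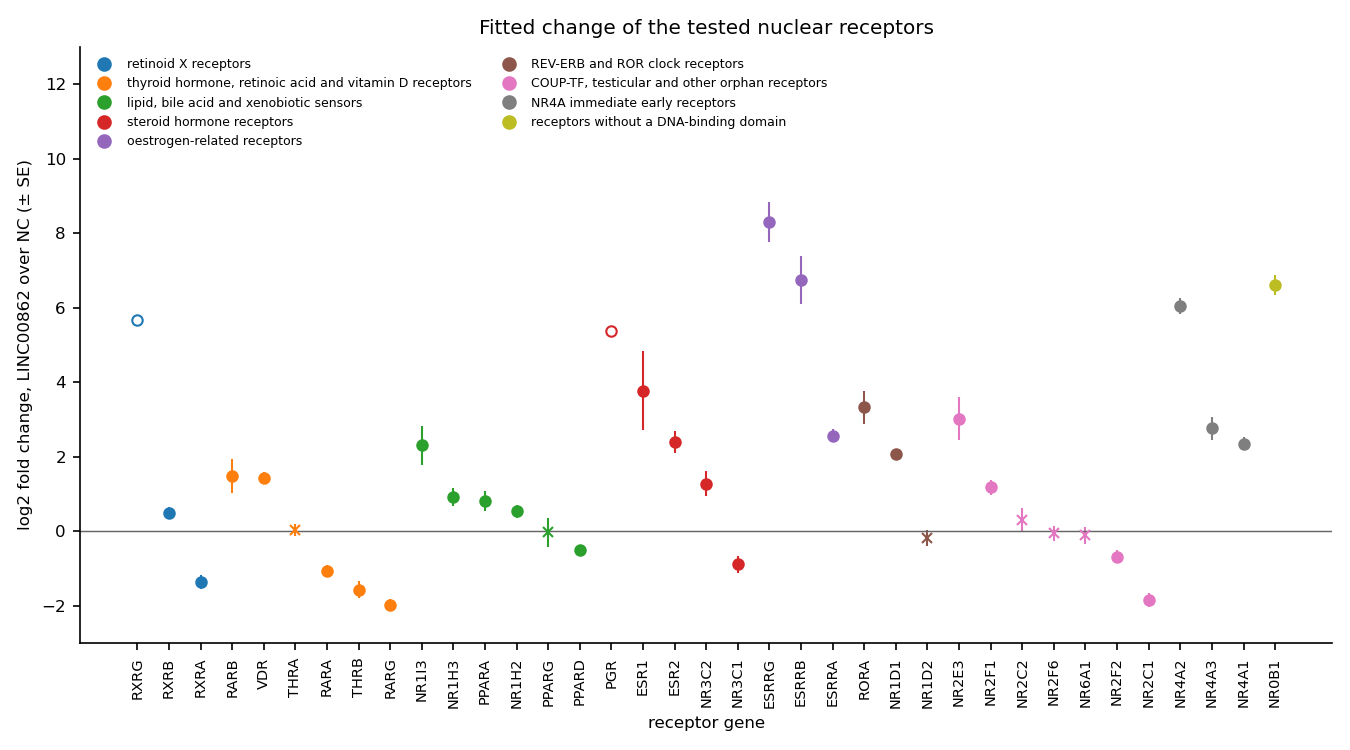
Log2 fold change of each tested receptor, LINC00862 over NC, with its SE, coloured by class, where crosses mark receptors that did not pass the test. Open circles are RXRG, drawn at its count ratio, and PGR, drawn at its lower bound, both without an SE. All 3 ERR and all 3 NR4A receptors lie above 2, and the lowest points are RARG at -1.97 and NR2C1 at -1.85.

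NR0B1 (DAX1) and NR0B2 (SHP) lack the usual DNA-binding domain and repress other receptors by binding to them. NR0B1, best known from the adrenal gland and gonads, had 14, 13 and 10 counts in NC and 1296, 975 and 1127 in LINC00862. Its level went from 0.0882 ± 0.0211 to 8.10 ± 0.62 FPKM (SD, n = 3), so that a gene at trace level in NC ranked 9th among the receptors in LINC00862 (log2 fold change 6.61, SE 0.26, adjusted p = 1.40e-07). NR0B2, the bile acid-induced repressor of the liver, had 3, 0 and 8 counts in NC and 0 in each LINC00862 library, and was too low to be tested.

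Of the retinoid X receptors, RXRA was lower, RXRB was slightly higher and RXRG appeared at a low level. RXRA, the main RXR of liver, had 3.44, 2.30 and 3.01 FPKM in NC and 1.02, 1.17 and 0.820 in LINC00862 (log2 fold change -1.37, SE 0.18, adjusted p = 0.000137). RXRB had 12.6, 11.7 and 12.3 FPKM in NC and 15.9, 18.2 and 11.5 in LINC00862. These overlap, and the fitted log2 fold change of 0.48 (SE 0.16, adjusted p = 0.0255) was not called when either LINC00862 library 1 or 2 or NC library 2 was left out. SLC39A7 on the opposite strand covers 6.22% of the RXRB exon bases and was higher too (log2 fold change 1.63). RXRG, a receptor of muscle and nervous tissue, had 3, 0 and 0 counts in NC and 40, 33 and 70 in LINC00862, a ratio of 50.9 (95% counting interval 17.1 to 249.6, adjusted p = 0.000922). All 3 NC counts lay in NC library 1, and without that library the difference was at least 32.6-fold with 3 counts over the other NC libraries as the floor. RXRB was the main RXR in both groups, with 80.8% ± 2.61 of the RXR FPKM in NC and 92.2% ± 1.42 in LINC00862 (SD, n = 3). The summed level of these partner receptors, 15.1 ± 1.03 and 16.5 ± 3.50 FPKM, overlapped between the groups (exact two-sided permutation p = 0.6, n = 3 per group).

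Among the retinoic acid receptors (RAR), which control differentiation, RARA and RARG were lower and RARB was higher. RARG had 8.23, 6.84 and 8.76 FPKM in NC and 1.81, 1.95 and 1.61 in LINC00862, a fall by 1.97 on the log2 scale (SE 0.16, adjusted p = 6.62e-06). RARA had 4.19, 3.53 and 4.21 FPKM in NC and 1.79, 1.58 and 1.63 in LINC00862 (log2 fold change -1.07, SE 0.17, adjusted p = 0.000475). An antisense gene, RARA-AS1, covers 11.8% of the RARA exon bases and did not pass the test (log2 fold change -0.45). RARB, whose own retinoic acid element is printed above, had 0.362, 0.112 and 0.387 FPKM in NC and 0.790, 0.831 and 0.533 in LINC00862. Its groups did not overlap (log2 fold change 1.48, SE 0.45, adjusted p = 0.0173), but the call was lost without LINC00862 library 1 or 2. The RAR transcripts summed to 12.2 ± 1.53 FPKM in NC and 4.17 ± 0.34 in LINC00862, and RARB made up 2.27% ± 1.04 of them in NC and 17.1% ± 2.62 in LINC00862 (SD, n = 3).

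The thyroid hormone receptors differed from each other. THRB, the main form of liver, had 1.95, 1.08 and 1.16 FPKM in NC and 0.388, 0.466 and 0.378 in LINC00862 (log2 fold change -1.57, SE 0.24, adjusted p = 0.000359). THRA had 3.88, 2.66 and 3.10 FPKM in NC and 2.97, 3.33 and 2.48 in LINC00862, values that overlap, and it did not pass the test (log2 fold change 0.04, SE 0.16, adjusted p = 0.838). VDR, the vitamin D receptor, rose from 1.76, 1.32 and 1.35 FPKM to 3.63, 3.87 and 3.10, a log2 fold change of 1.44 (SE 0.16, adjusted p = 5.96e-05).

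Among the sensors of lipids and foreign compounds, PPARA, both LXR and CAR were higher, PPARD was lower and PPARG did not pass the test, and several of the calls were lost when 1 library was left out. PPARA, which switches on fat oxidation in fasting liver, had 1.62, 0.812 and 0.705 FPKM in NC and 1.76, 1.71 and 1.32 in LINC00862. NC library 1 lay within the range of the LINC00862 libraries (log2 fold change 0.80, SE 0.27, adjusted p = 0.0248), and without NC library 1 the log2 fold change was 1.19. Without NC library 2 or 3, or LINC00862 library 1 or 2, the call was lost. PPARD, a broadly expressed form, was the main PPAR and fell from 8.50, 6.64 and 7.01 FPKM to 4.35, 4.93 and 4.54 (log2 fold change -0.50, SE 0.14, adjusted p = 0.0115), a call that was lost without LINC00862 library 1. PPARG, the regulator of fat cell formation, had 79, 83 and 66 counts in NC and 85, 89 and 38 in LINC00862 and did not pass the test (log2 fold change -0.03, SE 0.39, adjusted p = 0.944).

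The oxysterol receptors (LXR) raise cholesterol export and fatty acid synthesis. NR1H2 (LXR beta) had 8.07, 7.90 and 10.04 FPKM in NC and 11.6, 12.7 and 9.32 in LINC00862, so that NC library 3 exceeded LINC00862 library 3 (log2 fold change 0.53, SE 0.17, adjusted p = 0.0201). Its call was lost without NC library 2 or LINC00862 library 1 or 2. NR1H3 (LXR alpha), the form enriched in liver, rose from 0.853, 1.03 and 1.08 FPKM to 2.05, 1.58 and 1.41 without overlap (log2 fold change 0.92, SE 0.24, adjusted p = 0.00758). NR1I3 (CAR), a liver sensor of drugs, had 6, 14 and 14 counts in NC and 69, 57 and 37 in LINC00862 (log2 fold change 2.30, SE 0.53, adjusted p = 0.00428). TOMM40L on the opposite strand covers 20.0% of its exon bases and did not pass the test (log2 fold change 0.10). NR1H4 (FXR), the bile acid receptor of liver and gut, had 8 counts in LINC00862 library 3 and 0 in the other libraries, which was too few to test.

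The steroid hormone receptors were dominated by NR3C1, the glucocorticoid receptor, which was lower in LINC00862. It had 20.6, 11.2 and 10.3 FPKM in NC and 6.90, 6.95 and 5.99 in LINC00862 (log2 fold change -0.89, SE 0.22, adjusted p = 0.00625). NC library 1 stood well above the other NC libraries, and without it the difference was -0.57 on the log2 scale and still passed the test. NR3C2, the mineralocorticoid receptor of salt balance, had 1.33, 0.517 and 0.608 FPKM in NC and 1.71, 2.20 and 1.27 in LINC00862. It was called higher (log2 fold change 1.27, SE 0.34, adjusted p = 0.00869), although NC library 1 exceeded LINC00862 library 3. NR3C1 made up 94.7% ± 0.85 of the FPKM of both corticosteroid receptors in NC and 79.5% ± 3.32 in LINC00862 (SD, n = 3).

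Receptors for sex steroids were present at low levels. ESR2 (oestrogen receptor beta) had 44, 45 and 40 counts in NC and 210, 234 and 194 in LINC00862 (log2 fold change 2.40, SE 0.30, adjusted p = 0.000113). An overlapping gene on the same strand, AL161756, covers 5.60% of its exon bases and was higher too (log2 fold change 3.34). ESR1 (oestrogen receptor alpha), the main oestrogen receptor of liver and breast, had 8, 0 and 0 counts in NC and 44, 25 and 35 in LINC00862, at most 0.0408 FPKM in any library (log2 fold change 3.77, SE 1.06, adjusted p = 0.0120). All 8 NC counts lay in NC library 1, and without that library the difference was at least 23.7-fold with 3 counts over the other NC libraries as the floor. PGR, the progesterone receptor, is a classic target of ESR1. It had 0 counts in each NC library and 55, 40 and 22 in LINC00862, at least 41.6-fold higher when 3 counts over the NC group are taken as the floor (adjusted p = 0.000388).

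The clock receptors REV-ERB and ROR compete for the same DNA element, REV-ERB as a repressor and ROR as an activator. NR1D1 (REV-ERB alpha) had 3.52, 3.14 and 3.48 FPKM in NC and 12.8, 12.7 and 12.4 in LINC00862 (log2 fold change 2.07, SE 0.14, adjusted p = 2.95e-06). NR1D1 and THRA lie tail to tail on opposite strands and share 263 exon bases, 9.49% of those of NR1D1, so reads there cannot be told apart if strand was not used. NR1D2 (REV-ERB beta) had 9.54, 5.83 and 4.92 FPKM in NC and 4.96, 5.82 and 4.83 in LINC00862 and did not pass the test (log2 fold change -0.19, SE 0.21, adjusted p = 0.455). NR1D1 thus supplied 34.5% ± 7.25 of the REV-ERB FPKM in NC and 70.8% ± 2.01 in LINC00862 (SD, n = 3). RORA had 100, 110 and 53 counts in NC and 1146, 1041 and 355 in LINC00862. LINC00862 library 3 held far less than the other LINC00862 libraries but lay above all NC libraries (log2 fold change 3.33, SE 0.44, adjusted p = 0.000164). RORB, a form of brain and retina, had 3, 0 and 12 counts in LINC00862 and 0 in each NC library and was not tested.

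The orphan receptors of the COUP-TF and testicular receptor groups mostly repress other receptors' targets. NR2F2 (COUP-TFII), a receptor of mesenchyme and veins, was the most abundant receptor of NC. It fell from 28.7, 20.5 and 19.3 FPKM to 12.5, 11.6 and 13.3 (log2 fold change -0.68, SE 0.17, adjusted p = 0.00557). NR2F1 (COUP-TFI), known from the developing nervous system, rose from 1.15, 1.26 and 1.31 FPKM to 2.69, 2.35 and 2.47 (log2 fold change 1.18, SE 0.20, adjusted p = 0.000723). NR2F6 (EAR2), another repressor, had 13.1, 14.9 and 19.9 FPKM in NC and 15.6, 13.1 and 12.4 in LINC00862, and these overlap (log2 fold change -0.06, SE 0.20, adjusted p = 0.820).

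NR2C1 (TR2) and NR2C2 (TR4), close relatives that repress fetal globin genes, parted. NR2C1 fell from 4.58, 5.34 and 3.89 FPKM to 1.11, 1.09 and 1.18 (log2 fold change -1.85, SE 0.18, adjusted p = 2.50e-05). NR2C2 had 6.22, 3.99 and 2.11 FPKM in NC, a wide spread that takes in all LINC00862 values of 3.93, 4.31 and 4.96, and it did not pass the test (log2 fold change 0.31, SE 0.31, adjusted p = 0.409). Its exons overlap MRPS25 on the opposite strand over 10.1% of their bases. NR2C1 supplied 54.8% ± 11.4 of the FPKM of both in NC and 20.5% ± 1.49 in LINC00862 (SD, n = 3). NR2E3, a photoreceptor gene, had 6, 4 and 7 counts in NC and 40, 30 and 59 in LINC00862 (log2 fold change 3.02, SE 0.58, adjusted p = 0.00147). NR6A1, a repressor of germ cells and early embryos, had 0.920, 0.590 and 0.643 FPKM in NC and 0.564, 0.641 and 0.547 in LINC00862 and did not pass the test (log2 fold change -0.11, SE 0.23, adjusted p = 0.695).

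The proteins that work with the receptors were taken from 14 lists of coregulators, chaperones, ligand enzymes and target genes. Without the receptors themselves, 127 listed genes were tested, of which 61 were higher (48.0%) and 35 lower (27.6%), against 34.4% and 29.8% of all tested genes, with a median log2 fold change of 0.54 against 0.11. Of these, 13 reached the count filter only through the LINC00862 libraries and so had to be higher. Among the 101 listed genes at the cutoff in all 6 libraries, 42 were higher (41.6%) and 30 lower (29.7%), against 28.1% and 35.3% of all genes held to that cutoff, with a median of 0.17. Of 19 coactivators, 4 were higher (21.1%) and 7 lower (36.8%), with a median of -0.33. PPARGC1A (PGC-1 alpha), the partner of the ERR and PPAR receptors, had 0.336, 0.268 and 0.218 FPKM in NC and 38.2, 38.5 and 32.3 in LINC00862. This was the largest log2 fold change among the coactivators, 7.22 (SE 0.20, adjusted p = 2.94e-08). NCOA7 (1.29) and NCOA1 (0.82) were the other coactivators with the largest rises in log2 fold change, and KAT2B, a histone acetyltransferase, had the largest fall (-1.99), followed by PRMT1 (-0.91) and NSD1 (-0.87).

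Of 10 corepressors, 2 were higher (20.0%) and 6 lower (60.0%), against 34.4% and 29.8% of all tested genes, with a median log2 fold change of -0.52. HR, among the 6, reached the filter only through NC and so had to be lower. HDAC3, the deacetylase of the NCOR complex, fell from 25.3, 24.9 and 28.0 FPKM to 5.66, 5.57 and 3.73 (log2 fold change -2.22, SE 0.17, adjusted p = 6.49e-06). HR (hairless), a corepressor of thyroid hormone receptor, ROR and VDR, had 1.75, 1.53 and 1.62 FPKM in NC and no count in any LINC00862 library, at least 808.7-fold lower with 3 counts over the group as the floor (adjusted p = 1.12e-06). NRIP1 (1.39) and TBL1X (1.28) were higher, and TBL1XR1 was lower (-0.78). Among 10 chaperones that hold steroid receptors ready for hormone, 7 were lower and 1 higher, with a median of -0.72. FKBP5 (-1.79), STIP1 (-1.10) and PTGES3 (-1.05) had the largest falls in log2 fold change, and FKBP4 was the 1 that rose (0.91).

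**Figure D3:**
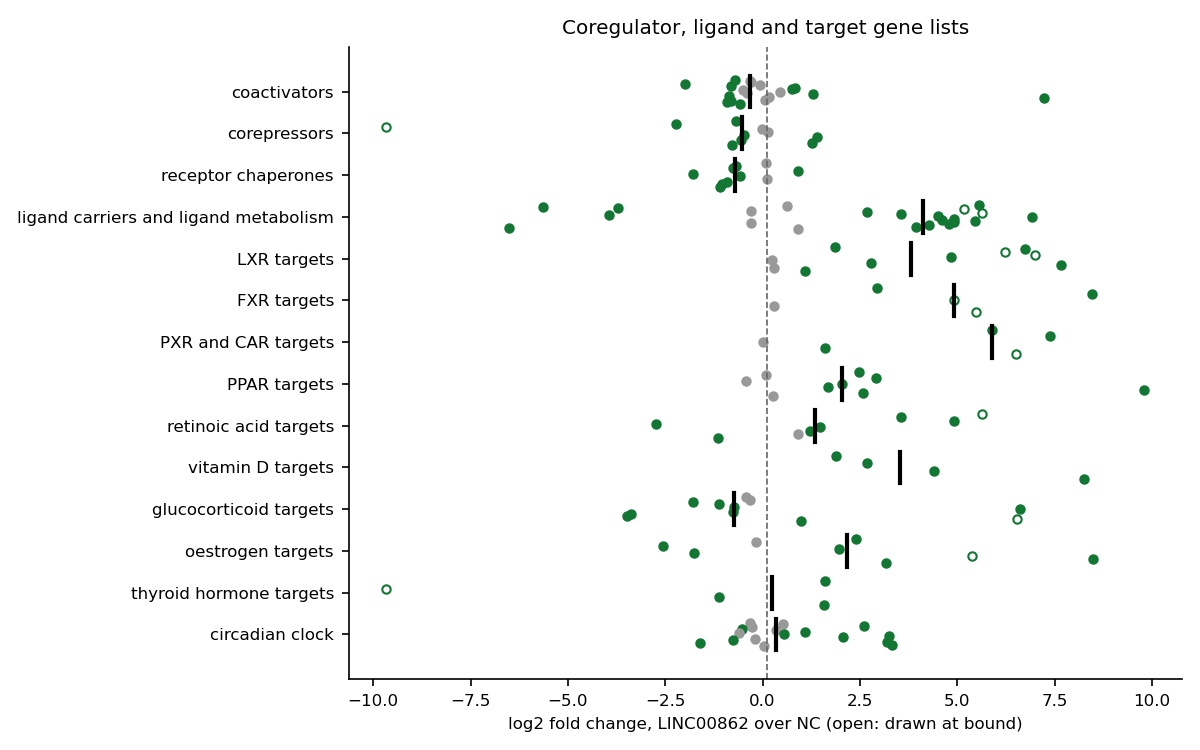
Log2 fold change of each tested gene in the 14 lists, LINC00862 over NC (1 point per gene, green where the test was passed, grey where not), with the list median as a black bar and the median of all tested genes, 0.11, as a dashed line. Genes with no count in one group are open and drawn at their bound. No gene passed the test as lower in the LXR, FXR, PXR and CAR, PPAR and vitamin D lists, and the median was below 0 in the coactivator, corepressor, chaperone and glucocorticoid lists.

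Genes that make, carry or destroy receptor ligands were mostly higher in LINC00862. Of 22 tested, 14 were higher (63.6%) and 4 lower (18.2%), against 34.4% and 29.8% of all tested genes, with a median log2 fold change of 4.11. However, 5 reached the count filter only through LINC00862 and 2 only through NC. Of the 11 at the cutoff in all 6 libraries, 8 were higher and 1 lower, with a median of 4.50. ALDH1A1, which makes retinoic acid, rose from 0.133, 0.0844 and 0.255 FPKM to 7.01, 7.06 and 6.49 (log2 fold change 5.57, adjusted p = 3.26e-06, and 6.18 without NC library 3). ALDH1A3, which does the same, fell from 5.52, 4.26 and 3.57 FPKM to 0.0496, 0.0830 and 0.0970 (log2 fold change -5.65, adjusted p = 7.21e-07). The group with more of one enzyme had less of the other. DHRS3, which turns retinal back into retinol, rose to 16.5 to 19.3 FPKM from 0.573 to 0.710 (log2 fold change 4.93). DIO2, the deiodinase that activates thyroid hormone, was higher (log2 fold change 5.46).

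Target genes of retinoic acid, vitamin D and the lipid sensors were mostly higher. Of 8 tested retinoic acid targets, RARB among them, 5 were higher (62.5%) and 2 lower (25.0%), against 34.4% and 29.8% of all tested genes. The median log2 fold change of the 8 was 1.35, and 1 passed the count filter only through LINC00862. CYP26B1, a retinoic acid-degrading enzyme, rose from 0.202, 0.155 and 0.147 FPKM to 1.55, 1.67 and 2.04 (log2 fold change 3.56), and TGM2 was lower (-1.15). CYP26A1, whose element is printed above, had no count in NC and a mean of 0.217 FPKM in LINC00862, at least 50.2-fold higher by the same floor. All 4 tested vitamin D targets were higher, against 34.4% of all tested genes. The filter's cutoff was met in all 6 libraries by 2 of them. The median of the 4 was 3.54, with the calcium channel TRPV6 at 8.24, OSGIN1 at 4.39 and CD14 at 1.88.

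LXR targets were higher in 8 of 10 tested genes (80.0%, against 34.4% of all tested genes) and lower in none, with a median log2 fold change of 3.82. Since 2 passed the count filter only through LINC00862, the 7 at the cutoff in all 6 libraries are given too, of which 5 were higher, with a median of 1.87. PLTP, a lipid transfer protein, rose from 0.166, 0.309 and 0.0909 FPKM to 36.6, 35.8 and 32.7 (log2 fold change 7.66). The exporter ABCG1 (6.75) and APOE (4.85) were the next largest of the named LXR targets. Of 5 tested FXR targets, 4 were higher (80.0%, against 34.4% of all tested genes). The median of the 5 was 4.92 when genes without a count in NC are set at their bound. The largest rise was that of the fibrinogen chain FGB (8.47), which is also one of the hepatocyte markers above. Of these 5, 3 passed the filter only through LINC00862 and so had to be higher, which leaves 2 at the cutoff in all 6 libraries, 1 of them higher. Of 5 tested PXR and CAR targets, 4 were higher (80.0%, against the same 34.4%), with a median of 5.89. They included the bile salt and drug exporters ABCC2 (7.38) and ABCB1 (5.89, and 6.53 without NC library 3). Of the 3 at the cutoff in all 6 libraries, 2 were higher. The other 5 genes of that list were too low to be tested. PPAR targets were higher in 6 of 9 (66.7%, against the same 34.4%) and lower in none, with a median of 2.05. None of them passed the filter through 1 group only. ACSL1, which activates long-chain fatty acids, rose from 2.45, 1.75 and 1.51 FPKM to 13.2, 14.03 and 10.5 (log2 fold change 2.90), and PDK4, which spares glucose by holding back pyruvate oxidation, was higher as well (2.58).

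**Figure D4:**
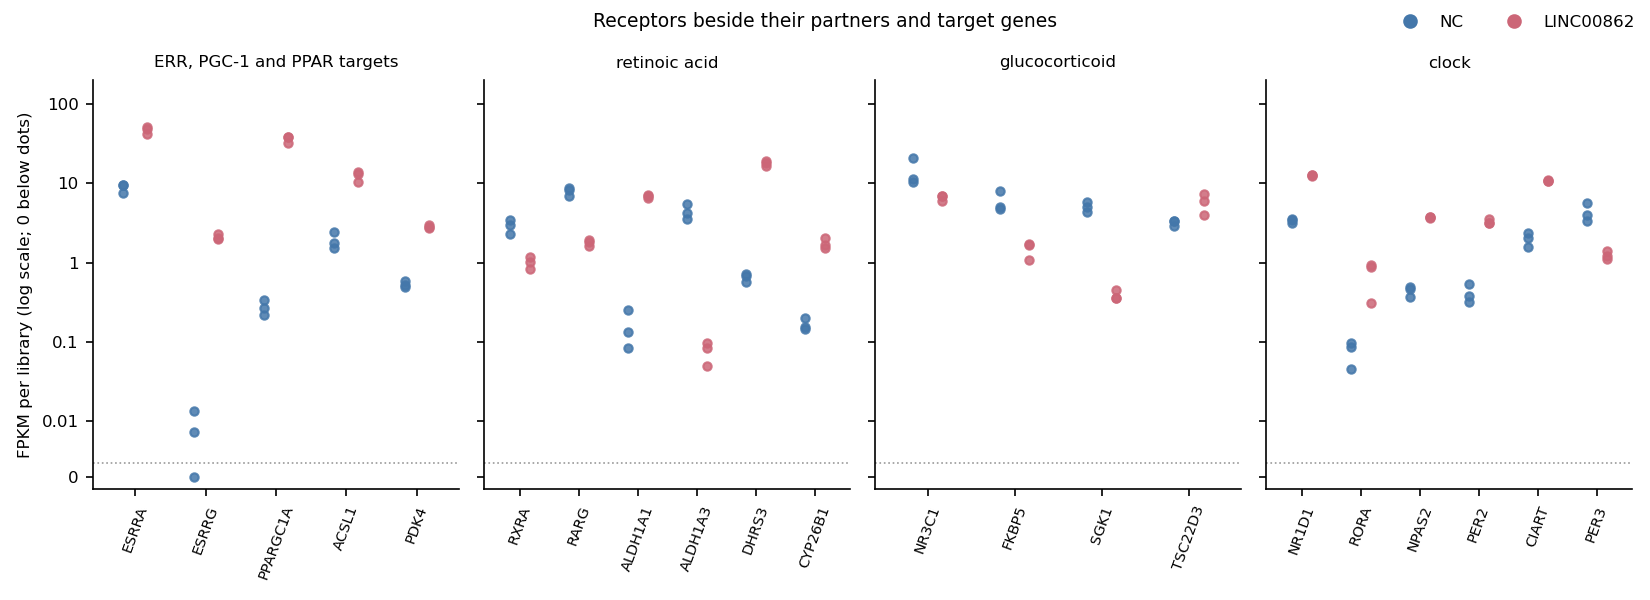
FPKM per library (vertical log axis, 0 drawn below the dotted line) of receptors beside partner and target genes, in NC and LINC00862. NC and LINC00862 do not overlap for any of the genes drawn: the PGC-1 alpha gene PPARGC1A stands at 32.3 FPKM or more in LINC00862 and 0.336 or less in NC, while NR3C1, FKBP5 and SGK1 are lower in LINC00862.

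Of 11 tested glucocorticoid targets, 6 were lower (54.5%, against 29.8% of all tested genes) and 3 higher (27.3%, against 34.4%), with a median log2 fold change of -0.73. The 3 include 2 that passed the count filter only through LINC00862. SGK1, a kinase, fell from 5.76, 5.06 and 4.32 FPKM to 0.363, 0.355 and 0.456 (log2 fold change -3.47). FKBP5, the chaperone named above, fell from 8.00, 4.95 and 4.72 FPKM to 1.74, 1.67 and 1.09 (-1.79). TSC22D3 (GILZ), another widely used glucocorticoid target, was higher, with 2.89, 3.32 and 3.37 FPKM in NC and 5.90, 7.23 and 3.95 in LINC00862 (log2 fold change 0.99, adjusted p = 0.00256). No receptor ligand was measured, so these lists describe transcripts and not receptor activity.

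Of 8 oestrogen targets, PGR among them, 5 were higher (62.5%) and 2 lower (25.0%), against 34.4% and 29.8% of all tested genes. The median log2 fold change of the 8 was 2.18. At the filter's cutoff in all 6 libraries there were 6, of which 3 were higher and 2 lower, with a median of 0.89. TFF1, a secreted mucosal peptide, rose from 0.479, 1.21 and 0.280 FPKM to 233, 207.1 and 206 (8.50, and 9.27 without NC library 2), beside XBP1 (3.17) and CCND1 (2.40), while IGFBP4, with 73.8 to 111.4 FPKM in NC and 9.58 to 15.3 in LINC00862, fell (-2.56). Of 4 tested thyroid hormone targets, BCL3 (1.60) and ME1 (1.59) were higher, and KLF9 (-1.11) and HR were lower, 50.0% in each direction.

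The circadian clock genes, 4 of which are receptors described above, did not move in one direction. Of 17 tested, 7 were higher (41.2%, against 34.4% of all tested genes) and 3 lower (17.6%, against 29.8%), with a median log2 fold change of 0.36. NPAS2, a partner of BMAL1, rose from 0.500, 0.367 and 0.461 FPKM to 3.75, 3.75 and 3.70 (log2 fold change 3.25). PER2, a repressor of the clock, rose from 0.536, 0.385 and 0.319 FPKM to 3.20, 3.15 and 3.57 (3.19), and CIART was higher as well (2.60). PER3 (-1.61), PER1 (-0.75) and CRY1 (-0.53), also repressors of the clock, were lower. The 3 PER genes thus differed in sign.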

How the data were processed

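RNA was sequenced as paired reads from 3 NC and 3 LINC00862 libraries. For every gene the authors deposited a raw count, not normalized, and FPKM, scaled by the authors for transcript length and library size. The submitters' processing notes name cutadapt 1.9, HISAT2 2.0.4, UMI-tools, StringTie 1.3.4d, DESeq2, edgeR and the build hg38 without their roles. Whether molecular identifiers were collapsed and strand was used in counting is not given in the sources used here. Columns were matched to samples by name, and groups came from the labels. The deposited fold changes and p-values were not used.

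Counts were tested with edgeR 4.0.16 in R 4.3.3 (filterByExpr with a minimum count of 10, TMM, quasi-likelihood test, Benjamini-Hochberg adjustment over all tested genes, false discovery rate 0.05), and the scripts were tested on simulated data. Single values were compared by exact two-sided permutation tests. A count of 3 over a group was the floor, and intervals cover counting error only. The alternatives were DESeq2 1.42.0, upper quartile and library size scaling, a replicate block, a test against a fold change of 2, limma-trend (limma 3.58.1) on FPKM in log2 with 1 or 0.1 added, all genes with a count, a false discovery rate of 0.01, and leaving out each library.

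Total counts were 58241123 to 68229070, and the libraries of a group differed by more than sampling noise. Over genes, the deviations from the group means correlated at -0.05, -0.03 and -0.0074 between libraries of one number, so no shared deviation was seen. The labels do not say whether libraries of one number were made in parallel, which these correlations cannot decide, and the main test did not pair them. The genes named are every receptor, LINC00862, the cell markers, and of each list the called genes with a mean of at least 1 FPKM in either group, up to 3 with the largest rise and 3 with the largest fall. Values of some genes that this rule names are not reported here, although they count in their lists. The receptors, lists and tests were chosen with earlier results of these data known. Exon overlaps are from GENCODE 29. Python 3.11.15 with pandas 2.3.3 made the tables.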

Additional observations from a re-analysis of the deposited data

How the results depend on the processing

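Of the 31 receptors called, 18 kept their direction and call in all 15 alternatives. The test against a fold change of 2 called 8010 genes, 4 lower receptors and 12 lower listed genes, in place of 13321, 8 and 35, since it asks for larger changes. With the replicate block 21 receptors were higher and 8 lower, and RXRB and NR1H2 lost their calls. RXRB, PPARA and NR1H2 each lost the call in 9 fits, scaling by library size and a false discovery rate of 0.01 among them. RARB and PPARD lost it in 4, and ESR1 in 2. PGR lost it with limma-trend on log2(FPKM + 1), and RARA, NR1H3, NR3C1, NR3C2, NR2F1 and NR2F2 in the test against a fold change of 2. Leaving out 1 library gave 12063 to 14285 genes called, 19 to 23 receptors higher and 7 or 8 lower.

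Signs turned only among receptors that did not pass the test, and the cause was not tested. THRA had log2 fold changes of -0.13 by library size and of -0.097 and -0.12 by limma-trend with 1 and 0.1 added. Upper quartile scaling put PPARG at 0.17, NR1D2 at 0.032, NR2F6 at 0.15 and NR6A1 at 0.10, and DESeq2 put PPARG at 0.016. With 1 library left out, THRA lay between -0.066 and 0.14, PPARG between -0.26 and 0.22, NR1D2 between -0.34 and 0.079, NR2F6 between -0.22 and 0.17, and NR6A1 between -0.22 and 0.047. Under TMM, DESeq2, upper quartile and library size scaling the median over the receptors was 1.18, 1.23, 1.39 and 1.02, and over all genes 0.11, 0.16, 0.32 and -0.051. Receptors with fewer than 20 counts in a group (RXRG, ESR1, PGR, ESRRB, ESRRG, NR2E3) are limited by depth.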
